A study of Mus musculus with 4 samples.

Results

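The IL-1 family genes measured here were Il1a, Il1b, Il1rn, Il1r1, Il1r2, Il1rap, Il1f9, Il18 and Il18bp. They were taken by symbol from the gene lists of the deposited matrices, and all 9 were present among 27998 listed genes. IL-1α and IL-1β, encoded by Il1a and Il1b, are agonists that bring the receptor IL-1R1 (Il1r1) together with its accessory chain (Il1rap), after which MyD88 and the IRAK kinases activate NF-κB. The antagonist IL-1Ra (Il1rn) occupies IL-1R1 without recruiting the accessory chain, and IL-1R2 (Il1r2) is a decoy receptor that binds IL-1 without signalling. Il1f9 is the older symbol of the gene for IL-36γ, an epithelial and myeloid agonist that also uses the accessory chain, and IL-18 (Il18) is held in check by the soluble IL-18 binding protein (Il18bp). Precursors of IL-1β and IL-18 need cleavage, commonly by caspase-1, before they act, so transcript levels say nothing of active cytokine.

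CD45+ cells (leukocytes) of the nasal mucosa of C57BL/6 mice (female per the study's methods) were profiled by droplet single-cell RNA sequencing in 4 libraries. The mice were 8 weeks old, wild type as far as the labels go, and each library is a group of its own, namely Vehicle (vehicle spray, no ovalbumin), Vehicle-OVA (vehicle spray with ovalbumin, OVA, the protein used to make an allergic airway model), Ribavirin (spray of the antiviral nucleoside analogue ribavirin, no OVA) and Ribavirin-OVA (ribavirin spray with OVA). The series set out to clear commensal viruses of the nose with ribavirin. The number of mice behind each library was not given, and with 1 library a group no difference below was tested and no p-value is given. Intervals in brackets are 95% intervals that cover counting error only. Differences between mice, digests or runs cannot be told apart from those between groups.

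The libraries held 10311 to 28277 cells, of which 69145 of 79132 were kept, with 82010701 to 152333422 UMIs (unique molecular identifiers, 1 for each captured transcript) in the kept cells. The lowest total in a deposited cell was 1782 UMIs in Ribavirin and 500 or 501 in the other libraries, and 14.3% of the deposited Ribavirin-OVA cells had at least 10% mitochondrial UMIs against 5.18% in Ribavirin. Pairs of libraries shared 57 to 174 cell barcodes. Cells fell into 45 clusters, of which 39 were named from fixed markers into 15 classes. Neutrophil-like cells made up 29.1% of kept cells in Vehicle, 64.5% in Vehicle-OVA, 33.9% in Ribavirin and 29.8% in Ribavirin-OVA. Because a level over all cells moves with that share, each gene is given within classes as well. The members themselves were kept out of the genes used for clustering.

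Over the 4 libraries Il1b had 1849493 UMIs, Il1rn 345721, Il1r2 147595, Il1f9 96861 and Il1a 86988. The receptor and IL-18 genes were sparser, with 34588 UMIs for Il1rap, 13529 for Il18bp, 7314 for Il1r1 and 3533 for Il18. Levels below are CPM, the member's UMIs divided by all UMIs of the same cells and multiplied by 1000000, and since UMIs count 3′ ends they were not divided by gene length. Where 4 values follow each other they are in library order, that is Vehicle, Vehicle-OVA, Ribavirin, then Ribavirin-OVA.

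On mouse build GRCm38 the genes lie in 3 groups and 3 single positions. Il1a at chr2:129299610-129309972 and Il1b at chr2:129364570-129371139 are neighbours on the minus strand with 54.6 kb between them, and a gene annotated as Il1bos overlaps Il1b on the other strand. Il1f9 at chr2:24186476-24193568 and Il1rn at chr2:24336853-24351494 lie 143.3 kb apart on the plus strand of the same chromosome. Il1r2 at chr1:40074079-40125231 and Il1r1 at chr1:40225080-40317257 are also on the plus strand, 99.8 kb apart. Il1rap lies at chr16:26581704-26730117 and Il18 at chr9:50554827-50581840 on the plus strand, and Il18bp lies at chr7:102014885-102018690 on the minus strand. Il18 overlaps Bco2 and Tex12, and Il18bp overlaps Numa1, each on the opposite strand.

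The 250 bases before the start sites of both agonists and of the antagonist are shown because these 3 genes share the neutrophil-like cells as their main source and yet differ in how they stood with OVA. Sequences are RefSeq promoters on GRCm38.p6, 5′ to 3′ on the gene's strand, and capitals mark TATAAA (the TATA box core) and TGANTCA (the AP-1 motif), both looked for on each strand.
Il1a, chr2:129309973-129310222, minus strand: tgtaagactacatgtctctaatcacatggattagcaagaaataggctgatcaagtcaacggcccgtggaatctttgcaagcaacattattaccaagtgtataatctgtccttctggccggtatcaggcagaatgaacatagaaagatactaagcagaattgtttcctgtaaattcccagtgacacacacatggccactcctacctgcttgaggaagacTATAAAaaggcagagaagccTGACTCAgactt
Il1b, chr2:129371140-129371389, minus strand: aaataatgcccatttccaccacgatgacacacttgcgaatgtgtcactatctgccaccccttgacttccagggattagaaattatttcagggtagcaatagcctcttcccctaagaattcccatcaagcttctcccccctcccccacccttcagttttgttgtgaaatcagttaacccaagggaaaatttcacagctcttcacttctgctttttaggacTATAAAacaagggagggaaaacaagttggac
Il1rn, first of 3 annotated start sites, chr2:24336610-24336859, plus strand: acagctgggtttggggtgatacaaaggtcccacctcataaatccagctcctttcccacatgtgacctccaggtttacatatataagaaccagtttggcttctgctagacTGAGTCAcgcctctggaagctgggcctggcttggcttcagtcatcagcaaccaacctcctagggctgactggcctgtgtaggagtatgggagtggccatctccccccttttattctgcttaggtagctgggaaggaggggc

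Both agonist promoters held TATAAA close to the start, its first base at -32 in Il1a and -31 in Il1b, while 12.4% of 32817 promoters of this length held it anywhere on either strand. Il18 had a match as well, on the opposite strand and farther off, with its first base at -175. The AP-1 motif began at -12 in Il1a and at -141 in Il1rn, and 6.75% of all promoters held it. A κB motif (3 G, any 3 bases, then TTCC), found in 4.65% of promoters, was met before the third Il1rn start site, with its first base at -51, and before the second Il1r1 start site at -232. The C/EBP motif TTGCNNAA, in 9.57% of promoters, was met in Il1r1 at -133 and in Il18bp at -49. These matches are letters only, and 3′ counts do not show which of the 3 Il1rn start sites was used.

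Il1b, the main inflammasome-processed agonist, was by far the most abundant member and lay mostly in neutrophil-like cells. Over all cells its level was 3425 CPM in Vehicle, 7583 in Vehicle-OVA, 3443 in Ribavirin and 1645 in Ribavirin-OVA. Under vehicle the OVA library was 2.21-fold higher [2.21 to 2.22], whereas under ribavirin the OVA library was at 0.478 times [0.475 to 0.481] its counterpart. Il1b thus stood on opposite sides of its no-OVA counterpart in the 2 pairs. Within neutrophil-like cells, however, the level was 16273 CPM in Vehicle, 16425 in Vehicle-OVA, 16402 in Ribavirin and 11050 in Ribavirin-OVA, so that 3 libraries were near level and Ribavirin-OVA alone was lower. The OVA ratio there was 1.01 under vehicle and 0.674 under ribavirin. The all-cell difference under vehicle therefore moved with the share of neutrophil-like cells, which held 62.5% of Il1b UMIs in Vehicle and 83.3% in Vehicle-OVA, and 69.0% and 72.1% in the ribavirin libraries. The median gene in neutrophil-like cells had a log2 ratio of -0.76 with OVA under vehicle and 0.33 under ribavirin, and relative to it Il1b was 0.78 higher and 0.90 lower on the log2 scale. Taken as the mean of single-cell CPM instead, the vehicle value was on the other side of 0, at -0.21.

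Other myeloid classes carried Il1b at levels well under those of neutrophil-like cells. Macrophage-like cells stood at 2152, 3298, 2340 and 1452 CPM in library order, an OVA ratio of 1.53 under vehicle and 0.620 under ribavirin. Monocyte-like cells had 3015, 2422, 2381 and 1003 CPM, and conventional dendritic cell (cDC)-like cells stood at 2088, 2013, 1866 and 824 CPM. Ribavirin-OVA was the lowest library in each of these classes. By their medians the order was neutrophil-like, monocyte-like, macrophage-like and cDC-like, and the ranges of the last 3 over libraries overlapped. A cluster without a name, cluster 3, led by Ly6i and Cxcl9 with macrophage markers behind them, held 2539 cells in Vehicle, 223 in Vehicle-OVA, 1638 in Ribavirin and 94 in Ribavirin-OVA. Its Il1b level was 4016, 6105, 4346 and 2252 CPM, and it supplied 18.1% of all Il1b UMIs in Vehicle against 1.67% in Vehicle-OVA.

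Free RNA sets a floor under such values. B cell-like, plasmacytoid dendritic cell-like and NK-like cells, which should lack Il1b, ran from 108 to 182 CPM in Vehicle and from 357 to 520 CPM in Vehicle-OVA. Under ribavirin they ran from 156 to 489 CPM without OVA and from 66.0 to 89.4 CPM with it. For Il1rn the same classes read 5.28 to 8.00, 180 to 299, 11.1 to 67.4 and 14.8 to 20.8 CPM. T cell-like Il1rn, at 5.58, 245, 15.9 and 17.0 CPM, lay in or next to these ranges and was read as background.

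**Figure D1:**
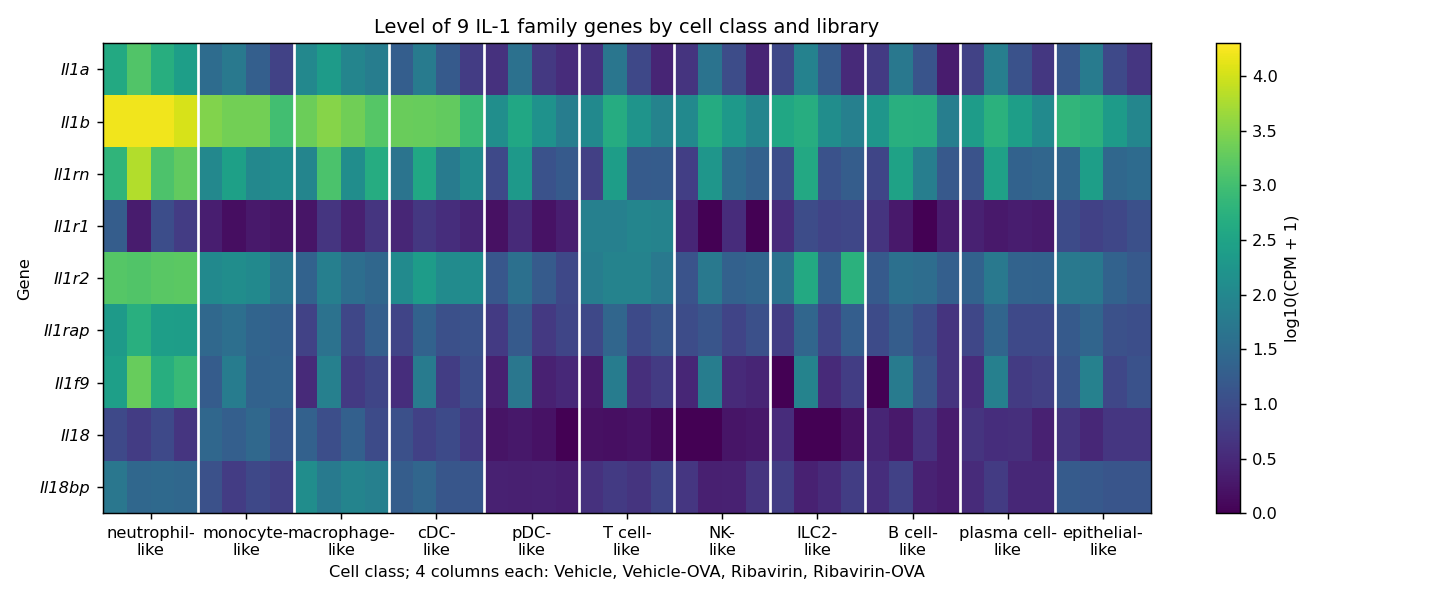
Level of each of the 9 genes, as log10(CPM + 1) in colour, by cell class with 4 columns a class for the libraries. Il1b, Il1a, Il1rn, Il1f9, Il1r2 and Il1rap were highest in neutrophil-like cells, Il1r1 in T cell-like cells among the larger classes, Il18 in monocyte-like and Il18bp in macrophage-like cells.

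Il1rn, the receptor antagonist, had the highest OVA ratio of the 9 members in neutrophil-like cells of vehicle-treated mice. Over all cells it stood at 157 CPM in Vehicle, 2846 in Vehicle-OVA, 267 in Ribavirin and 331 in Ribavirin-OVA. Vehicle-OVA was 18.1-fold higher than Vehicle [17.8 to 18.3], and Ribavirin-OVA was 1.24-fold higher than Ribavirin [1.22 to 1.26]. Relative to the median gene the latter value was on the other side of 0, at a log2 ratio of -0.13. In neutrophil-like cells Il1rn stood at 654 CPM in Vehicle, 6304 in Vehicle-OVA, 1236 in Ribavirin and 1843 in Ribavirin-OVA. Vehicle-OVA stood far above the other 3 libraries, with an OVA ratio of 9.64 [9.47 to 9.82] under vehicle and 1.49 [1.46 to 1.52] under ribavirin. Without OVA the ribavirin library was 1.89-fold higher than the vehicle library, and with OVA it was at 0.292 times. The shares of neutrophil-like cells in Il1rn UMIs were 54.6%, 85.2%, 67.1% and 59.8% in library order.

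Macrophage-like Il1rn was higher with OVA in both pairs. The levels were 87.8 CPM in Vehicle, 1198 in Vehicle-OVA, 127 in Ribavirin and 461 in Ribavirin-OVA, ratios of 13.6 [13 to 14.3] and 3.64 [3.48 to 3.81]. Over 11 alternatives the log2 ratio ran from 2.48 to 4.14 under vehicle (3.77 as processed) and from 0.68 to 2.60 under ribavirin (1.86), where 9 of 11 stayed past 2-fold. The lowest were those with resolution 0.5 and with classes from single-cell markers. These cells came from different clusters with and without OVA. Cluster 5, led by complement C1q genes and Apoe, had 1976, 122, 1418 and 130 cells, and cluster 7, with Arg1 and Retnla, had 19, 1946, 31 and 1387 cells, in library order. Within cluster 5 Il1rn read 77.5, 255, 85.8 and 112 CPM, of which the Vehicle-OVA value was inside the free-RNA range, and cluster 7 read 1152 in Vehicle-OVA and 463 in Ribavirin-OVA, above it. Cluster 3 read 311, 1070, 514 and 1238 CPM, so that it was higher with OVA in both pairs, 3.44-fold and 2.41-fold. The ribavirin value, which rests on 94 cells, was lower under all 9 alternatives, at log2 ratios from 0.60 to 1.09 beside 1.27, and 4 of 9 stayed past 2-fold. Macrophage-like cells held 29.5% of Il1rn UMIs in Ribavirin-OVA but 5.92% to 10.6% in the other libraries.

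Il1a, the agonist that acts without inflammasome cleavage, was 6.55-fold higher with OVA under vehicle and at 0.443 times under ribavirin over all cells (91.7, 601, 104 and 45.8 CPM in library order). Neutrophil-like cells held 409, 1344, 498 and 252 CPM in that order. Here Vehicle-OVA was the highest and Ribavirin-OVA the lowest library, with OVA ratios of 3.28 [3.21 to 3.36] and 0.506 [0.484 to 0.530]. Macrophage-like cells held 101, 231, 90.4 and 66.6 CPM, a ratio of 2.29 under vehicle and 0.736 under ribavirin. The order of neutrophil-like over macrophage-like over monocyte-like cells held with no overlap of the libraries' ranges. Cluster 31, a small unnamed cluster led by Sparc and P2ry12 (181, 55, 91 and 41 cells), carried Il1a at 385, 407, 226 and 263 CPM beside Il1b at only 498, 1119, 392.3 and 544 CPM.

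Il1f9 (IL-36γ) was the member most confined to neutrophil-like cells, which held 92.5% to 94.5% of its UMIs in the 4 libraries. Its level there was 270 CPM in Vehicle, 1986 in Vehicle-OVA, 491 in Ribavirin and 783 in Ribavirin-OVA. Both OVA libraries were above their counterparts, with a ratio of 7.34 [7.14 to 7.55] in the vehicle pair and 1.59 [1.55 to 1.64] in the ribavirin pair. Macrophage-like cells read 2.28, 72.4, 4.34 and 6.85 CPM where B cell-like cells read 0, 59.3, 12.7 and 3.42, so their values were near free-RNA level. Of the other IL-1 family ligands on the fixed list, 5 of 9 symbols were in the files, and Il1f6 (IL-36α) alone had enough UMIs in a neutrophil-like pair, at 0.102 CPM in Vehicle and 6.28 in Vehicle-OVA.

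**Figure D2:**
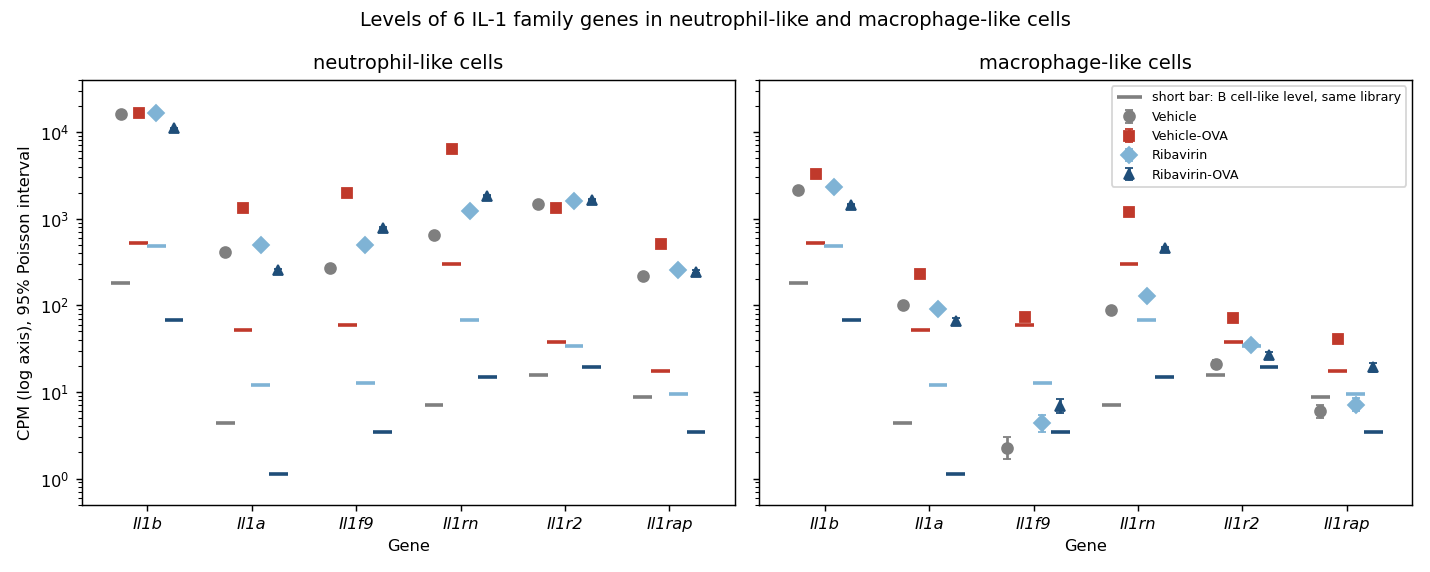
Levels of 6 members (CPM, log axis, bars are 95% Poisson intervals) in neutrophil-like and macrophage-like cells of the 4 libraries, with the B cell-like level of the same library as a short bar. Il1rn, Il1a, Il1f9 and Il1rap were highest in Vehicle-OVA in both classes, and Il1b was 16273 to 16425 CPM in 3 neutrophil-like groups and 11050 in Ribavirin-OVA. Macrophage-like Il1f9 lay close to the B cell-like bars, and so did Il1r2 except in Vehicle-OVA, at 70.6 CPM against 37.9.

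Counted at a 2-fold ratio among genes with at least 50 UMIs in the pair, the members stood against a wide background. All 9 members had enough UMIs in each pair named here. Over all cells with OVA under vehicle, 6 of 9 members were higher (Il1a, Il1b, Il1rn, Il1r2, Il1rap and Il1f9) where 12.9% of all genes were, and 1 (Il1r1) was lower where 10.4% were. Under ribavirin 0 of 9 were higher against 12.7% of genes, and Il1a and Il1b were lower against 2.81%. In neutrophil-like cells with OVA under vehicle, 4 members (Il1a, Il1rn, Il1rap and Il1f9) were higher against 8.05% of genes and Il1r1 was lower against 41.0%. Under ribavirin 0 members were higher against 10.2%, and Il18 was lower against 3.56%. That Il18 ratio rests on 32 UMIs in Ribavirin-OVA and 177 in Ribavirin, and 10 of 11 alternatives kept it past 2-fold. Neutrophil-like Il18 was at 3.64 to 8.03 CPM over the libraries. Between the 2 libraries without OVA, 0 members were past 2-fold in neutrophil-like cells. Of all genes, 2.36% were higher and 0.635% lower in the Ribavirin library, so a count of 0 among 9 members is no result about them. With OVA, the ribavirin library had Il1r1 higher, against 42.2% of genes, and Il1a, Il1rn, Il1rap and Il1f9 lower, against 3.54%. In macrophage-like cells with OVA under vehicle 6 members (Il1a, Il1rn, Il1r1, Il1r2, Il1rap and Il1f9) were higher against 12.9% of genes and Il18 and Il18bp were lower against 7.15%. Of these 6, Il1f9 lay near B cell-like levels and Il1r1 was at 0.729 to 3.64 CPM. Il1r2 read 70.6 CPM in Vehicle-OVA, where the free-RNA classes ran from 37.9 to 53.0 CPM. Il1a, Il1r1 and Il1r2 each had 1 or 2 of 11 alternatives under 2-fold. Under ribavirin Il1rn, Il1r1 and Il1rap were higher against 10.6%, and Il18 was lower against 5.02%. The median gene moved as well, by a log2 ratio of 0.87 between the OVA libraries of neutrophil-like cells, -0.25 between those without OVA, and 0.23 and 0.27 with OVA in macrophage-like cells under vehicle and ribavirin.

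**Figure D3:**
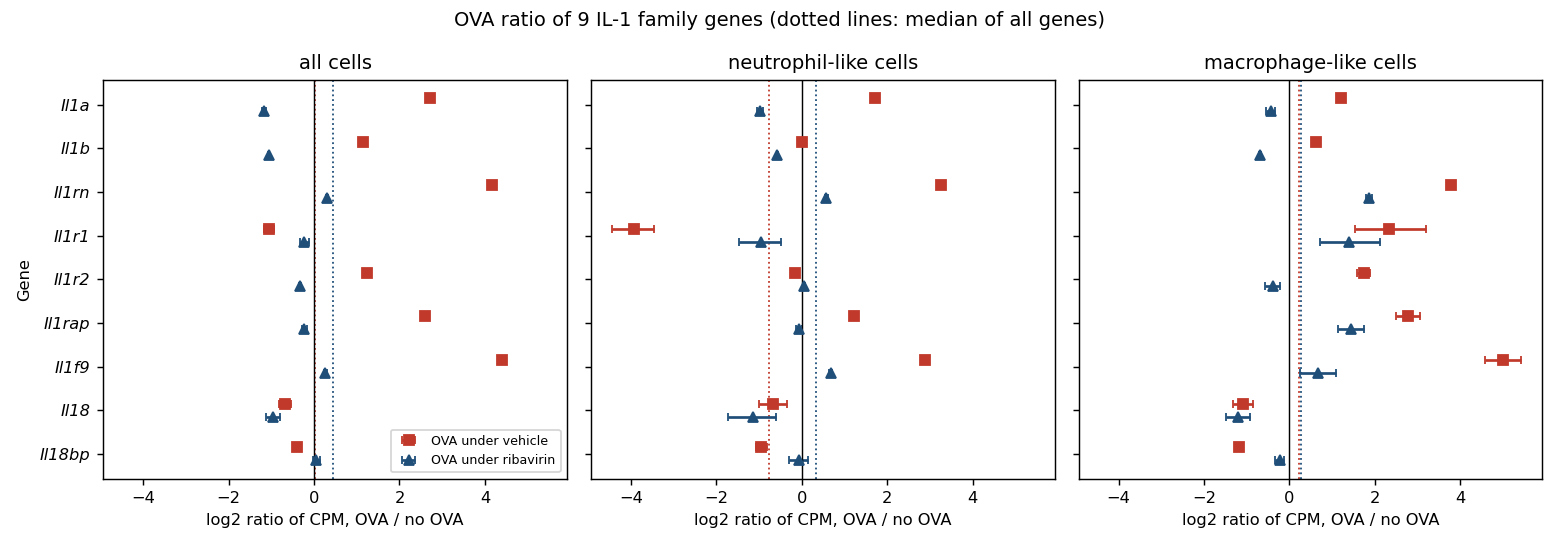
Log2 ratio of OVA over no OVA for each member under vehicle and under ribavirin, over all cells, in neutrophil-like and in macrophage-like cells, with 95% counting intervals and dotted lines at the median of all genes. Il1rn was to the right of 0 in both pairs in each panel, whereas Il1a and Il1b were to the right of 0 under vehicle (Il1b by 0.01 in neutrophil-like cells) and to the left under ribavirin.

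The balance of antagonist over agonist transcripts was described as Il1rn UMIs per 100 Il1b UMIs. Neutrophil-like cells held 4.02 in Vehicle, 38.4 in Vehicle-OVA, 7.53 in Ribavirin and 16.7 in Ribavirin-OVA. Macrophage-like cells held 4.08, 36.3, 5.41 and 31.8, and cluster 3 held 7.74, 17.5, 11.8 and 55.0. In these 3 populations both OVA libraries were above both libraries without OVA, since Il1rn was higher with OVA while Il1b was level, less than 2-fold higher, or lower. Cells with UMIs of both genes made up 56.4% of neutrophil-like cells in Vehicle, 93.1% in Vehicle-OVA, 68.3% in Ribavirin and 74.7% in Ribavirin-OVA. With every cell thinned to 1000 UMIs the shares were 36.4%, 82.3%, 45.5% and 56.1%, against 0.130%, 9.0%, 2.10% and 0.156% in thinned B cell-like cells, which should lack both. Thinning left the order of the libraries as it was.

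**Figure D4:**
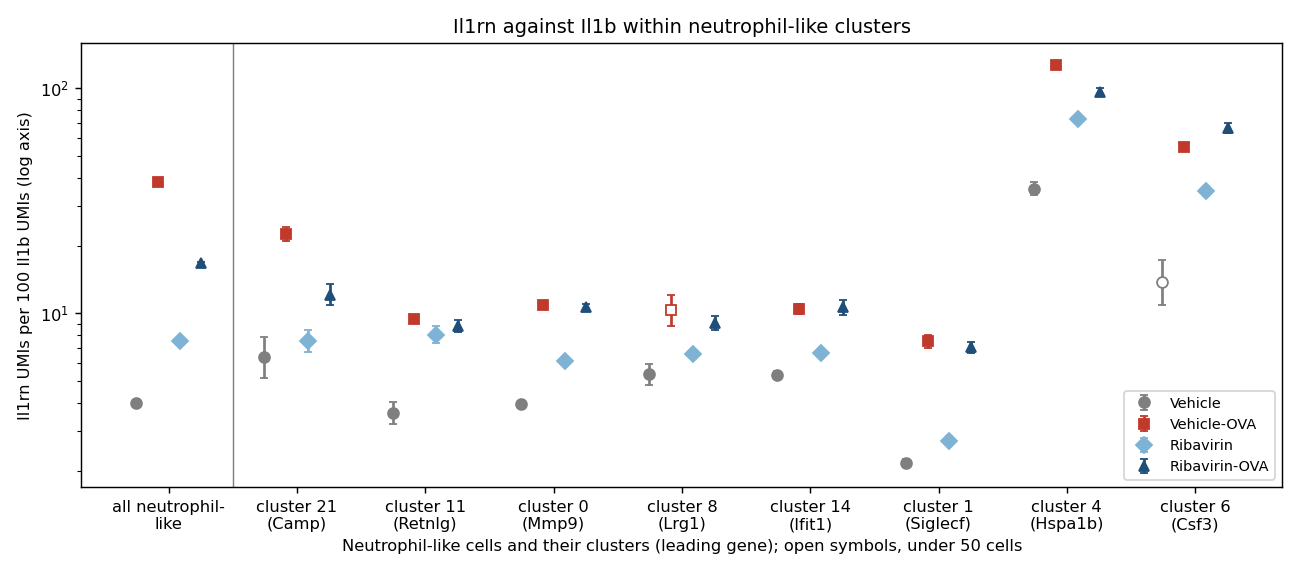
Il1rn UMIs per 100 Il1b UMIs (log axis) in neutrophil-like cells and 8 of their clusters in the 4 libraries, with bars for 95% counting intervals and open symbols under 50 cells. Cluster 4 reached 127 in Vehicle-OVA against 35.8 in Vehicle, cluster 1 stayed between 2.17 and 7.53, and in each of the 8 clusters the OVA libraries lay above their counterparts.

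Neutrophil-like cells comprised 9 clusters whose shares differed between the libraries. Cluster 4, led by the heat-shock genes Hspa1b and Hspa1a and by Hmox1, made up 2.44% of neutrophil-like cells in Vehicle, 31.7% in Vehicle-OVA, 3.95% in Ribavirin and 15.9% in Ribavirin-OVA. Cluster 6, led by Csf3, Cxcl3 and Serpinb2, made up 0.184%, 30.6%, 1.49% and 3.85%. These clusters had the highest Il1rn, at 3035, 9657, 6578 and 6159 CPM in cluster 4 and 2694, 9398, 6293 and 6533 CPM in cluster 6, the first of which came from 13 cells. The levels describe the clusters and are no finding about them, as genes that vary with Il1rn helped to define them. Heat-shock transcripts, which respond to stress and to tissue handling, moved with the OVA libraries, Hspa1b at 27, 365, 16.0 and 173 CPM and Hspa1a at 29.0, 260, 16.8 and 88.5 CPM in neutrophil-like cells, while the immediate early gene Fos read 3625, 2437, 3549 and 4270. Their part in the Il1rn levels was not tested.

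Ratios within clusters hold that mixture fixed at this resolution. Of 6 neutrophil-like clusters with at least 50 cells in both vehicle libraries, 6 had higher Il1rn with OVA, with ratios from 1.93 to 5.73 and a median of 3.13, and 5 were past 2-fold. Under ribavirin 8 clusters could be compared, with ratios from 0.936 to 2.60 and a median of 1.13, and the counting interval lay above 1 in 4 and below 1 in 1. Il1b within clusters ran from 0.895 to 1.63 under vehicle and from 0.545 to 0.998 under ribavirin, where 7 of 8 intervals were below 1. For Il1a 7 of 8 intervals were below 1 under ribavirin, with ratios from 0.0647 to 0.884. Il1f9 had median ratios of 2.30 and 1.43. Comparing ribavirin with vehicle in the OVA libraries, Il1rn was lower in 7 of 7 clusters, at 0.293 to 0.915 times. Without OVA it was higher in 7 of 7, at 1.18 to 2.17 times. Clusters are parts of the same libraries and not replicates, so these counts are no repeated evidence. The share of all genes that moved within clusters is not given here.

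Il1r2, the decoy receptor, differed little in neutrophil-like cells, its main source. Its level was 1488 CPM in Vehicle, 1332 in Vehicle-OVA, 1583 in Ribavirin and 1650 in Ribavirin-OVA, OVA ratios of 0.895 and 1.04. Relative to the median gene this is 0.60 higher under vehicle on the log2 scale. The all-cell ratio of 2.37 under vehicle moved with the neutrophil-like share, as for Il1b. In cluster 1, the Siglecf-led neutrophil-like cluster, Il1r2 was higher with OVA in both pairs, at 937, 1803, 1064 and 2060 CPM. Cluster 15, led by Foxp3, the factor of regulatory T cells, had Il1r2 at 155, 396, 189 and 189 CPM, 2.55-fold higher with OVA under vehicle and level under ribavirin.

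Cluster 27, named ILC2-like (type 2 innate lymphoid cells) from its markers, had Il1r2 at 39.8 CPM in Vehicle, 410 in Vehicle-OVA, 20.1 in Ribavirin and 558 in Ribavirin-OVA. The OVA ratios were 10.3 [6.23 to 18.3] and 27.7 [14.5 to 60.8] on 84 to 180 cells a library. With mitochondrial UMIs under 5% the log2 ratio under vehicle was 1.53 in place of 3.36, and with each library clustered on its own that under ribavirin was 3.63 in place of 4.79. The name goes against the data in the OVA libraries, since Cd3e, a T cell receptor subunit, read 4.97, 269, 8.95 and 258 CPM in this cluster. Cells of the cluster with a Cd3 UMI had 40.5, 411, 51.1 and 607 CPM of Il1r2 (28, 55, 22 and 150 cells), and cells without had 39.5, 405, 6.45 and 26.9 CPM (77, 29, 70 and 30 cells). In Ribavirin-OVA the decoy receptor thus lay with the Cd3-positive cells, and in Vehicle-OVA it was alike in both.

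Il1r1, the signalling receptor, lay mostly in T cell-like cells. T cell-like cells held 77.0%, 59.0%, 73.0% and 60.4% of its UMIs in library order. The T cell-like level was 74.5, 74.9, 88.2 and 83.7 CPM, with OVA ratios of 1.00 [0.907 to 1.11] and 0.949 [0.869 to 1.04]. The 4 libraries thus lay close together in this class. Among the lymphoid clusters plotted, those with Il17a carried the most. Cluster 10 (Cd163l1, Blk) had 135, 154, 178 and 187 CPM and cluster 2 (Il17a, Il17f) 103, 82.0, 98.7 and 68.2 CPM. The Foxp3-led cluster 15 had 33.3, 44.6, 47.8 and 33.4. T cell-like cluster 20, which was not plotted, held 8.00%, 4.01%, 8.55% and 1.69% of Il1r1 UMIs. IL-1 is known to drive IL-17 production by T cells that carry Il17a. Endothelial-like cells, 12 to 61 a library, read 72.0, 155, 100.01 and 163 CPM, above cluster 2 in every library but Vehicle.

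Over all cells Il1r1 was at 18.5, 8.93, 16.9 and 14.4 CPM, and its ratio of 0.483 under vehicle went with the T cell-like share of kept cells, which was 23.1% in Vehicle, 7.26% in Vehicle-OVA, 18.2% in Ribavirin and 17.0% in Ribavirin-OVA. In neutrophil-like cells the level was 17.8, 1.16, 9.30 and 4.77 CPM. Cluster 1 held 316 of 349 of these UMIs in Vehicle, 15 of 40 in Vehicle-OVA, 176 of 205 in Ribavirin and 37 of 42 in Ribavirin-OVA. Its level was 40.3, 15.7, 30.5 and 24.1 CPM, against 0.886 to 3.32 in cluster 0, and cluster 1 made up 36.1%, 2.87%, 25.5% and 19.5% of neutrophil-like cells. In neutrophil-like cells there were 83.8, 1145, 170 and 346 Il1r2 UMIs for each Il1r1 UMI. The IL-17 clusters, by contrast, held 1.06, 1.40, 1.35 and 0.772 in cluster 2 and 0.130, 0.490, 0.338 and 0.0858 in cluster 10.

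Il1rap, the accessory chain shared by the IL-1, IL-33 and IL-36 receptors, stood at 220 CPM in Vehicle, 511 in Vehicle-OVA, 254 in Ribavirin and 243 in Ribavirin-OVA in neutrophil-like cells. Only Vehicle-OVA was apart from the others here, with a ratio of 2.32 [2.24 to 2.40] against 0.960 [0.912 to 1.01] under ribavirin. Macrophage-like cells, at 5.97, 40.7, 7.09 and 19.2 CPM, were higher with OVA in both pairs, 6.82-fold and 2.70-fold. B cell-like cells read 8.73, 17.5, 9.52 and 3.42 CPM, so that macrophage-like Il1rap was above them in the OVA libraries.

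**Figure D5:**
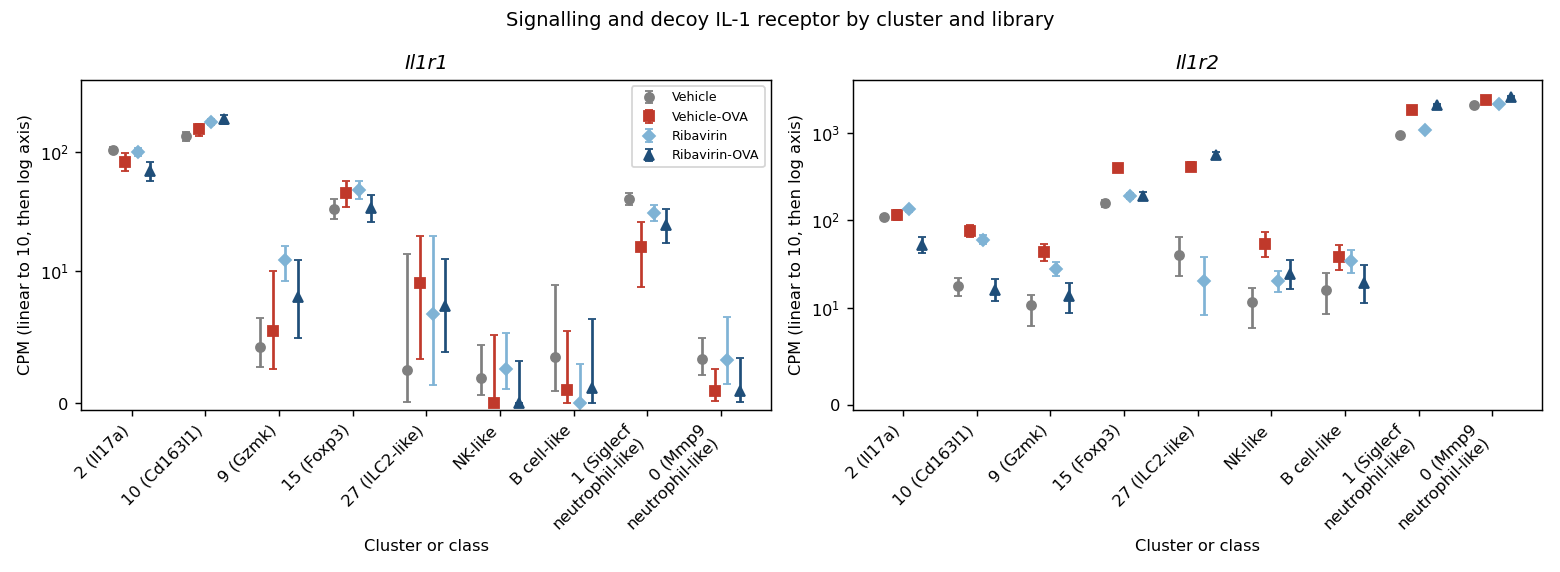
Levels of Il1r1 and Il1r2 (CPM, linear to 10 and then log, bars are 95% Poisson intervals) in lymphoid and neutrophil-like clusters and classes of the 4 libraries. Of the clusters and classes plotted, Il1r1 was highest in clusters 10 and 2, the Il17a-carrying T cell-like clusters. Il1r2 reached 396 CPM in cluster 15 and 558 CPM in cluster 27, below the neutrophil-like clusters. Endothelial-like cells were not plotted.

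Macrophage-like cells held the largest share of Il18 UMIs among the named classes, 32.6%, 42.0%, 30.4% and 43.9% in library order, and the unnamed clusters held 33.5%, 8.66%, 26.4% and 6.69%. Macrophage-like Il18 was 21 CPM in Vehicle, 9.89 in Vehicle-OVA, 20.01 in Ribavirin and 8.70 in Ribavirin-OVA, about level within each OVA state, with ratios of 0.471 [0.40 to 0.553] and 0.435 [0.358 to 0.526]. Il18 was past 2-fold lower in both pairs as processed, but only 5 of 11 alternatives kept it past 2-fold under vehicle (log2 ratios from -1.46 to -0.84) and 9 of 11 under ribavirin (-1.47 to -0.98). The class changed its clusters, however, and within cluster 5 the ratios were 1.08 [0.717 to 1.56] and 0.647 [0.384 to 1.03]. Monocyte-like cells had the highest median, with 26.5, 18.8, 27.1 and 13.9 CPM. By cluster, the Ifit-carrying macrophage-like cluster 26 read 47.0, 19.3, 60.2 and 19.1 CPM, the small unnamed cluster 31 read 36.4, 25.3, 31.7 and 20.2 CPM, and the Ifit1-led neutrophil-like cluster 14 read 26.0, 20.05, 21.6 and 14.7 CPM.

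Il18bp in macrophage-like cells stood at 127, 56.1, 85.7 and 73.0 CPM in library order, a ratio of 0.442 [0.413 to 0.472] under vehicle and 0.852 [0.791 to 0.918] under ribavirin. Within cluster 5 it was 129, 117, 91.7 and 95.1 CPM, ratios of 0.910 [0.771 to 1.07] and 1.04 [0.872 to 1.23], and cluster 7, which made up most of the class with OVA, read 44.2 in Vehicle-OVA and 67.9 in Ribavirin-OVA. The class changed its clusters in both pairs, and the part of that change in the class-level ratios was not tested. Neutrophil-like cluster 14 read 127, 154, 70.9 and 137 CPM against 50.5, 26.2, 28.0 and 26.7 in neutrophil-like cells as a whole. For each Il18 UMI macrophage-like cells held 6.04, 5.67, 4.28 and 8.40 Il18bp UMIs, and monocyte-like cells 0.405, 0.256, 0.282 and 0.405.

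Genes of the same pathway were followed in lists, counted at the same 2-fold ratio. The lists were chosen with earlier results of these data known, so their counts are descriptions only. Whether IL-1 drove any of the genes was not tested. Of all genes in neutrophil-like cells 8.05% were higher and 41.0% lower with OVA under vehicle, and 10.2% and 3.56% under ribavirin. In neutrophil-like cells with OVA under vehicle 7 of 8 NF-κB subunits and regulators were higher. Their list had a median log2 ratio of 1.76 beside -0.76 for all genes. Under ribavirin 0 of 8 were higher, with a median of 0.18 beside 0.33. The regulator Nfkbiz read 664, 3339, 1262 and 1407 CPM and the inhibitor Nfkbia 2127, 6580, 3124 and 3083 in library order. Genes known as IL-1 targets were higher in 8 of 8 under vehicle (median 2.08). Under ribavirin 1 of 7 was higher (Nos2, inducible nitric oxide synthase) and 3 were lower, namely the chemokines Cxcl1 and Cxcl2 and the growth factor Csf3. Nos2 read 4.02, 193, 4.94 and 47.6 CPM, log2 ratios of 5.58 and 3.27.

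Of 14 receptor-signalling genes, the kinase Irak2, the inhibitory kinase Irak3, the ligase Traf6 and the inhibitor Tollip were higher and the adaptor Tab1 lower in neutrophil-like cells with OVA under vehicle. Under ribavirin Tollip and the kinases Map3k7 and Chuk were higher, where 10.2% of all genes were. Tollip was the gene of this list past 2-fold in both pairs, with log2 ratios of 1.29 and 1.26, and among the family's other receptors the IL-33 receptor Il1rl1 was, with 1.20 and 1.85. Of 18 inflammasome, processing and release genes with enough UMIs, Nlrp3, Casp4 and the ATP receptor P2rx7 were higher under vehicle and Nlrp1b, Pycard, Casp1, Txnip and S100a10 lower, where 8.05% of all genes were higher and 41.0% lower, so that the lower count was no result about this list. Under ribavirin the inflammasome sensor Nlrp3 and the protease Elane were lower, where 3.56% of all genes were. Nlrp3 read 429, 1672, 780 and 379 CPM, and so had the same order of libraries as Il1a. Casp1, the IL-1β-processing protease, read 30.1, 13.99, 24.1 and 14.1 CPM.

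Of all genes in macrophage-like cells 12.9% were higher and 7.15% lower with OVA under vehicle, and 10.6% and 5.02% under ribavirin. Among target genes of these cells 8 of 8 were higher under vehicle (median log2 ratio 2.35 beside 0.23 for all genes) and 3 of 8 under ribavirin (0.47 beside 0.27). Those 3 were Nos2 (log2 ratios 5.71 and 2.31), Csf3 (5.17 and 2.19) and the cytokine Il6 (3.96 and 1.99). Il6 read 3.14, 48.8, 3.81 and 15.1 CPM where B cell-like cells read 0, 1.95, 4.76 and 0. All 8 target genes were also higher in neutrophil-like cells with OVA under vehicle. The part of free RNA in the other genes of this paragraph was not tested. Of the signalling list 6 of 14 were higher under vehicle and 3 under ribavirin, and Tollip (1.58 and 1.22), Chuk (1.27 and 1.24) and the adaptor Tab3 (1.23 and 1.18) were so in both. Of the inflammasome and processing list the pyrin gene Mefv (1.72 and 1.27), the protease Prtn3 (3.17 and 1.52) and the calpain Capn2, of the protease family that cleaves IL-1α (1.5 and 1.19), were higher in both, while S100a10 was higher and Nlrp1b lower under vehicle alone. The IL-36 receptor Il1rl2 was higher in both (1.57 and 1.72), at 6.56, 19.5, 6.62 and 21.8 CPM, and Il18rap, an IL-18 receptor chain, under vehicle. Of NF-κB genes Nfkb1 was higher under vehicle and Nfkbiz lower under ribavirin.

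Likeness to other genes was taken as Pearson's r of log2(CPM + 1) over 49 class-by-library points, which share libraries, depth and free RNA. Il1b was most like the receptor Clec5a (0.954), Nlrp3 (0.952) and Mefv (0.944), and Il1a most like Cxcl2 (0.947), Clec4d (0.943) and Irg1 (0.931). Il1rn was most like Tarm1 (0.94), Olr1 (0.933) and the arginase Arg2 (0.932), and Il1f9 most like Slfn4 (0.944), Arg2 (0.924) and Mrgpra2b (0.919). Il1r2 was nearest to Cass4 (0.889), Aqp9 (0.865) and Lilr4b (0.844), and Il1rap to Mrgpra2a (0.928), Rab44 (0.926) and Mrgpra2b (0.926). Il18 was nearest to the macrophage and monocyte genes Lyz2 (0.873), Csf1r (0.869) and Cd302 (0.858), Il18bp to Cd63 (0.904), Creb5 (0.879) and Ptgs1 (0.860), and Il1r1 to Ablim3 (0.815), Abi3bp (0.788) and Rbpms2 (0.771). Among the members themselves Il1rn was closest to Il1f9 (0.911) and Il1a (0.903), ahead of Il1rap (0.826) and Il1b (0.816).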

How the data were processed

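The authors deposited unnormalised UMI counts per gene and cell for each library, made with Cell Ranger 5.0.0 on mm10 per the submitters' processing notes, from nasal tissue digested enzymatically (collagenase I, hyaluronidase, DNase I) and enriched for CD45+ cells with magnetic beads per the labels (by flow sorting per the design text). Per the study's methods, mice of the OVA model were sensitised with OVA and alum and challenged through the nose. Cells with at least 500 UMIs, 200 genes and under 10% mitochondrial UMIs were kept, and 2.06% to 5.66% of cells per library were marked as doublets by simulation and removed. The 4 libraries were clustered together without integration (2000 variable genes without the members, 30 components, 15 neighbours, Leiden resolution 1), and clusters were named from at least 3 fixed markers. Of kept cells 10.2% stayed unnamed. The doublet rule and the naming pseudocount of 10 CPM were chosen after clusters were seen. UMIs were summed per class and library. Intervals are 95% and exact (Poisson for CPM, conditional binomial for ratios, Clopper-Pearson for shares). A gene was counted past a 2-fold ratio with at least 50 UMIs in the pair. Genes sharing a symbol (121) were kept apart by identifier. Named were the 9 members, list genes 2-fold in the same direction in both OVA pairs (at most 4 a list), genes of counts of 5 or fewer, and the 3 genes most like each member among genes with at least 500 UMIs, over class-by-library points with at least 50 cells. Nfkbia, Casp1, Il18r1, Il18rap, Il33, the stress genes and the clusters described were added after their values were seen. The members, lists and markers were chosen with earlier results of these data known. The ratio intervals and 2-fold calls were tested on simulated Poisson counts, and the thinned shares against drawn counts. Poisson counts are what the intervals assume, so the simulation cannot show how they hold for UMIs gathered in few cells. In neutrophil-like cells, 54.1% to 75.8% of a library's Il1a UMIs lay in the 10% of cells with the most. Filtering, doublet marking, clustering and naming were not tested in this way. Python 3.11.15, NumPy 2.4.6, SciPy 1.17.1, pandas 2.3.3, leidenalg 0.10.2 and igraph 0.11.9 were used.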

Additional observations from a re-analysis of the deposited data

Results flagged for a closer look

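Several members had OVA ratios on opposite sides of 1 under vehicle and under ribavirin, with counting intervals that did not reach 1. With 1 library a group these differences were not tested. They are given as the log2 OVA ratio under vehicle minus that under ribavirin. Over all cells the difference was 3.89 for Il1a (2.71 against -1.18), 2.21 for Il1b (1.15 against -1.07), 1.57 for Il1r2 and 2.82 for Il1rap. In neutrophil-like cells it was 2.70 for Il1a (1.71 against -0.98), 0.58 for Il1b (0.01 against -0.57) and -0.22 for Il1r2, where the ribavirin ratio was the higher. In macrophage-like cells it was 1.64 for Il1a, 1.31 for Il1b and 2.13 for Il1r2. The Il1r2 level there was close to that of B cell-like cells except in Vehicle-OVA, at 70.6 CPM against 37.9. In cluster 3, with 94 to 2539 cells a library, the difference was 1.70 for Il1a, 1.55 for Il1b and -1.22 for Il18bp. The neutrophil-like Il1b ratio under vehicle was close to level, and as the mean of single-cell CPM it was -0.21, on the same side as under ribavirin.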

How the results depend on the processing

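No paired analysis was possible because each group had 1 library. Of 43 member ratios past 2-fold, 27 stayed past it under every alternative, and all 406 alternative values kept their direction. The 43 include T cell-like ratios of Il1a, Il1b, Il1rn, Il1rap and Il1f9, and T cell-like Il1rn was read as background above. Ratios of Il1a and Il1rn in cluster 27 are included as well. No alternative took out free RNA, so these counts do not set it apart. Log2 OVA ratios of Il1b over all cells (1.15 under vehicle, -1.07 under ribavirin) were 1.12 and -1.5 relative to the median gene, 0.80 and -0.79 as the mean of single-cell CPM, 1.26 and -0.79 with mitochondrial UMIs under 5%, 1.14 and -1.08 under 20%, 1.17 and -1.05 with doublets kept, and 1.16 under vehicle with at least 1000 UMIs and 500 genes. Those of Il1rn (4.18 and 0.31) were 4.15 and -0.13, 4.2 and 0.64, 4.3 and 0.55, and 4.14 and 0.28 in the same settings, 4.22 under vehicle with doublets kept and 0.28 under ribavirin with at least 1000 UMIs. In neutrophil-like cells Il1b (0.01 and -0.57) was 0.78 and -0.90 relative to the median gene, -0.21 under vehicle as the mean of single-cell CPM, 0.022 and -0.58 under 5%, 0.020 and -0.56 under 20%, 0.035 under vehicle with at least 1000 UMIs, -0.59 under ribavirin with doublets kept, 0.076 and -0.53 at resolution 2, and 0.078 and -0.38 with classes from single-cell markers. Il1rn (3.27 and 0.58) was 4.03 and 0.24, 0.80 under ribavirin as the mean of single-cell CPM, 3.31 and 0.55, 3.23 under vehicle at 20%, 0.55 under ribavirin with at least 1000 UMIs, 3.36 and 0.48, and 3.33 and 0.77 in these settings. Il1rn UMIs per 100 Il1b UMIs there were 4.18, 46.9, 7.81 and 20.2 as the mean of single-cell CPM and 3.67, 35.8, 7.24 and 14.6 at resolution 2 in library order. In Vehicle-OVA they were also 38.6 and 37.8 under 5% and 20% mitochondrial UMIs, 37.5 with at least 1000 UMIs, 38.0 with doublets kept and 38.1 with single-cell markers, and in Ribavirin-OVA 16.3 under 5% and 16.2 with at least 1000 UMIs. Il1r1 and Il18 were limited most by depth, with single-digit CPM in most classes.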

Other observations

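Mast cell-like cells, 115 in all, showed Il1b at 394 CPM in Vehicle, 4561 in Vehicle-OVA, 465 in Ribavirin and 501 in Ribavirin-OVA, against B cell-like levels of 182, 520, 489 and 68.4 CPM. These values come from 17, 33, 18 and 47 cells. The neutrophil gene S100a8 read 1161, 2184, 1453 and 235 CPM in the same cells, where B cell-like, plasmacytoid dendritic cell-like and NK-like cells ran from 408 to 687 CPM in Vehicle-OVA, and the basophil gene Mcpt8 read 87.6, 2395, 182 and 819 CPM. Their part in the Il1b level was not tested. Il18r1, the ligand-binding chain of the IL-18 receptor, was highest in T cell-like and NK-like cells among the larger classes. In T cell-like cells it stood at 368, 667, 335 and 737 CPM in library order, so that both OVA libraries lay above both libraries without OVA. The partner chain Il18rap read 86.4, 193, 91.7 and 174 CPM in the same cells, and 194, 250, 206 and 238 CPM in neutrophil-like cells, where Il18r1 read only 16.3, 13.1, 14.1 and 20.9 CPM. Il33, the ligand of the IL-33 receptor, was at or below 2.38 CPM in T cell-like, NK-like, B cell-like, macrophage-like and neutrophil-like cells of all libraries.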
